A study of Mus musculus with 6 samples.

Results

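Connexin genes were compared between Col6a1+ and Col6a1− cancer-associated fibroblasts (CAFs) of colitis-associated colonic tumors. The 7 genes described here, Gja1, Gja4, Gja5, Gjb1, Gjb2, Gjb5 and Gjc1, were found by their symbols among the 49548 genes of the deposited table, which lists 20 connexin genes in all. All 6 libraries came from C57/BL6 mice with the genotype Col6a1-cre, Rosa26-mTmG, and colonic adenomas had been induced in every animal with azoxymethane (AOM), a carcinogen, and dextran sodium sulfate (DSS), which injures the colonic epithelium. In the mTmG reporter, cells express membrane Tomato until Cre removes it and switches on GFP, so that Col6a1Cre-GFP+ cells (Col6a1+ CAFs, 3 libraries) are those in which the Col6a1-driven Cre had acted, and Col6a1Cre-Tomato+ cells (Col6a1− CAFs, 3 libraries) are those in which it had not. Cells with the markers CD45, EpCAM, CD31 or Ter119 had been excluded in the sort, and each library came from the pooled tumors of several adult mice. The study used both sexes. By the study's own account, in the colon the Cre strain marks most PDGFRα-high fibroblasts together with pericytes and few PDGFRα-low fibroblasts, so that neither subset is 1 cell type.

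Connexins are the subunits of gap junctions. They assemble into hemichannels in the plasma membrane, and hemichannels of neighbouring cells dock through their extracellular loops into channels that pass ions and small metabolites from one cytoplasm to the next. In vessel walls, connexins couple pericytes and smooth muscle cells to each other and to endothelium, and in epithelia other members of the family, most of them of the beta group, couple neighbouring epithelial cells.

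The part of the first extracellular loop that carries its conserved cysteines shows what these genes have in common. A cysteine, any 6 residues, a cysteine, any 3 residues and a cysteine were searched in the coding sequence of 1 principal protein-coding transcript per gene (GENCODE M21, GRCm38), and the pattern was found once in each of the 7 genes. The matching 36 bases are printed 5′ to 3′ on the coding strand, with the 3 cysteine codons in capitals.
Gja1: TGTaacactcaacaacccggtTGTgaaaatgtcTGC
Gja4: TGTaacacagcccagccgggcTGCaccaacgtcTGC
Gja5: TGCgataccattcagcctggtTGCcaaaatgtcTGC
Gjc1: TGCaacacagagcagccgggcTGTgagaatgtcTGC
Gjb1: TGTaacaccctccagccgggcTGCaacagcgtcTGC
Gjb2: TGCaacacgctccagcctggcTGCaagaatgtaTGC
Gjb5: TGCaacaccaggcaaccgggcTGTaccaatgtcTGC

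On GRCm38 these stretches lie at chr10:56387706-56387741 (plus strand) in Gja1, chr4:127312774-127312809 (minus) in Gja4, chr3:97050788-97050823 (plus) in Gja5, chr11:102800984-102801019 (minus) in Gjc1, chrX:101384324-101384359 (plus) in Gjb1, chr14:57100558-57100593 (minus) in Gjb2 and chr4:127356158-127356193 (minus) in Gjb5. All are exonic and coding. Over the 21 pairs of genes, between 23 of the 36 bases (Gja4 and Gja5) and 31 (Gja4 and Gjb1) were identical. In each of the 7 transcripts the whole coding sequence lay in 1 exon, with 226 codons in Gjb2, the shortest, and 396 in Gjc1, the longest. The coding similarity bears little on the counts, which come from the 3′ ends of transcripts. Within the last 500 bases of their protein-coding transcripts, 6 of the 7 genes shared no stretch of 50 bases with a transcript of another gene. Gja1 shared one with Gm38099, which had 0 normalized counts in all 6 libraries.

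Values are normalized counts, which are reads per gene divided by the DESeq size factor of the library. They summed to between 3039152 and 3425249 per library, and from the spacing of the low values between 2568312 and 4519185 reads were estimated for 5 libraries, while the spacing of Col6a1− replicate 2 was not resolved. Col6a1+ replicate 1 stood apart, with 14530 genes above 0 against 18770 to 20511 in the other libraries. Where a library shows 0 for a gene, counting error alone leaves room for up to 3 counts. Log2 fold changes are the mean of log2(normalized count + 1) over the Col6a1+ libraries less the mean over the Col6a1− libraries, and were tested with limma over 26402 genes with Benjamini-Hochberg adjustment. The added 1 understates fold changes of low genes. A library at 0 can instead enlarge the log2 difference beyond the ratio of group means, as in Gjb1.

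Among the connexins of vessel walls and stroma, Gja4 and Gjc1 were higher in Col6a1+ CAFs, 49.2-fold and 31.9-fold by group means, and Gja1 was 2.60-fold higher by group means without passing the test. Gja5 was hardly detected in either subset. Among the beta connexins, Gjb1 and Gjb5 had larger counts in every Col6a1− library than in any Col6a1+ library, and Gjb2 had larger counts in every Col6a1+ library. At an adjusted p under 0.05, 2 of the 7 genes were higher in Col6a1+ CAFs and 0 were lower, against 2.66% and 1.96% of all genes tested (4.62% in either direction). Taking unadjusted limma p-values under 0.05 and absolute log2 fold changes over 1 instead, 4 were higher and 2 lower (background 6.09% and 8.61%). At an adjusted p under 0.05, limma-voom called 3 higher and 1 lower, against 804 and 1006 of the 26402 genes. In a fit blocked on replicate numbers, 0 of the 7 genes and 0.0% of all genes passed. With the same block fitted to the 13515 genes averaging 10 or more normalized counts, which took in 5 of the 7, 3 were higher and 1 was lower (background 7.26% and 6.44%, or 13.7% in either direction). The libraries of the subsets did not overlap for 4 genes with higher and 2 genes with lower levels in Col6a1+ CAFs, against 7.91% and 11.6% of all genes tested (19.5% in either direction). The median log2 fold change was 1.38 over the 7 genes and -0.27 over all genes tested.

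**Figure D1:**
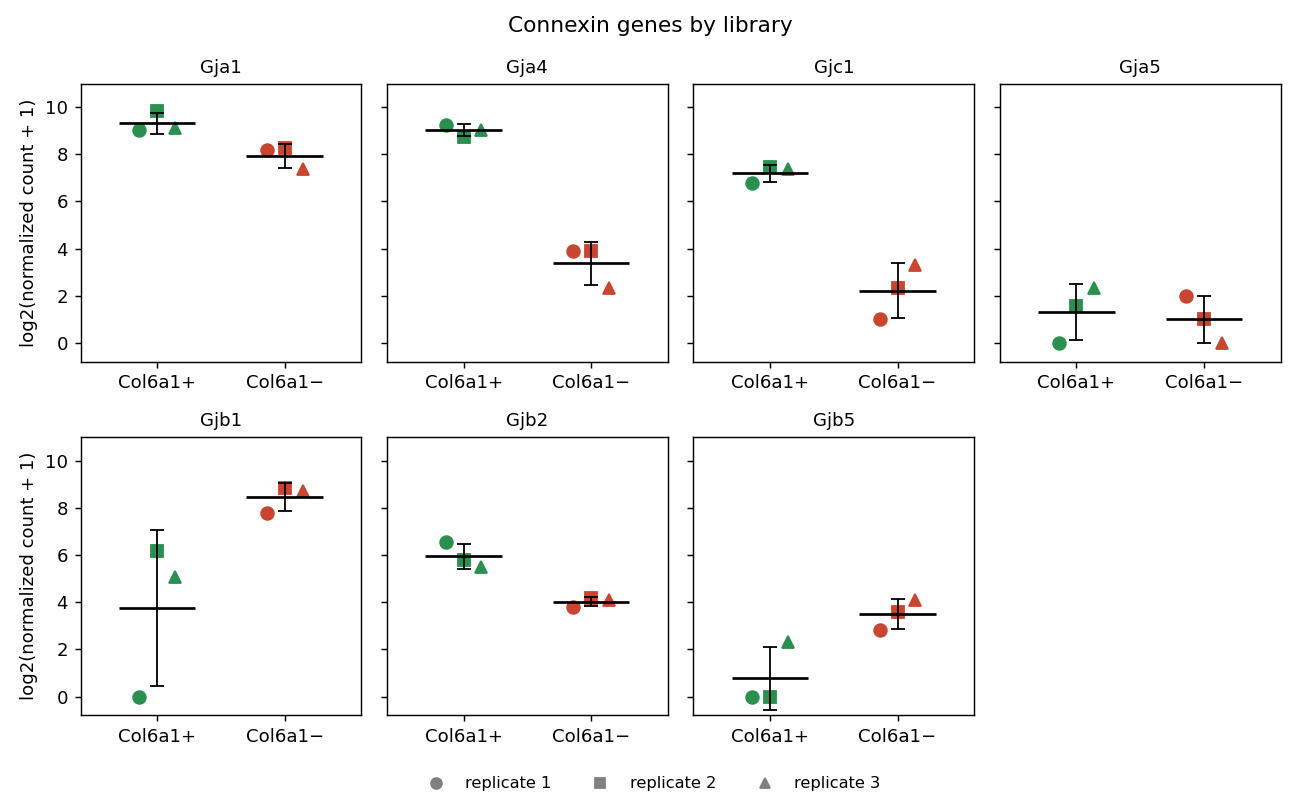
Each panel plots log2(normalized count + 1) of 1 connexin gene in the 3 Col6a1+ (green) and the 3 Col6a1− (red) libraries, with the marker shape giving the replicate number, a line at the group mean and a bar of 1 SD. Gja4 and Gjc1 separate most widely upward in Col6a1+ CAFs, Gjb1 and Gjb5 lie higher in Col6a1− CAFs, and Gja5 lies near 0 in both.

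Gja4 (ENSMUSG00000050234, chromosome 4 from 127311421 to 127314039 of mm10, minus strand) encodes Cx37, a connexin of arterial endothelium and mural cells. It had 614, 429 and 530 normalized counts in Col6a1+ replicates 1, 2 and 3, and 14, 14 and 4 in the Col6a1− replicates. The lowest Col6a1+ library thus stood far above the highest Col6a1− library. The group means were 524 ± 92.6 and 10.7 ± 5.77 (SD, n = 3 each), a ratio of 49.2. On the log2 scale the difference was 5.64 (standard error 0.51), and it passed the test (limma, adjusted p = 5.87e-04). In the fit blocked on replicates the adjusted p was 0.0612, and it was 0.00113 with the same block among genes averaging 10 or more. Gja4 did not pass when Col6a1+ replicate 1, 2 or 3 or Col6a1− replicate 1 was left out (adjusted p of 0.0503, 0.0924, 0.140 and 0.0581, with log2 fold changes of 5.52, 5.78, 5.63 and 5.91).

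Gjc1 (ENSMUSG00000034520, chromosome 11 from 102799579 to 102819700, minus strand) encodes Cx45, which is found in smooth muscle, pericytes and the conduction system of the heart. Its normalized counts were 108, 174 and 164 in the Col6a1+ libraries and 1, 4 and 9 in the Col6a1− libraries. The groups did not overlap, and 1 of the Col6a1− libraries was below the limit of 3 counts. Means were 149 ± 35.6 and 4.67 ± 4.04 (SD, n = 3 each), a ratio of 31.9. The difference of 4.98 on the log2 scale (standard error 0.72) passed with an adjusted p of 0.00408 by limma. The adjusted p was 0.0612 under the replicate block and 0.00338 under the block among genes averaging 10 or more. Gjc1 did not pass when any 1 of the 6 libraries was left out (adjusted p from 0.0563 to 0.167), and its log2 fold change then lay between 4.37 and 5.53.

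Gja1 (ENSMUSG00000050953, chromosome 10 from 56377300 to 56390419, plus strand) encodes Cx43, the most widespread connexin of fibroblasts and smooth muscle. In Col6a1+ replicates 1, 2 and 3 it had 521, 910 and 551 normalized counts, against 289, 308 and 164 in the Col6a1− replicates. Both subsets expressed it well above the detection limit, and each Col6a1+ library exceeded each Col6a1− library. Means were 661 ± 216 and 254 ± 78.2 (SD, n = 3 each). The log2 difference of 1.38 (standard error 0.35, 95% interval 0.60 to 2.17) narrowly missed the threshold (limma adjusted p = 0.0547). Among genes averaging 10 or more normalized counts it passed (adjusted p = 0.0407), and the alternatives gave adjusted p-values between 0.0160 and 0.260.

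Gja5 (ENSMUSG00000057123, chromosome 3 from 96904693 to 97077416, plus strand) encodes Cx40, a connexin of arterial endothelium. Its normalized counts were 0, 2 and 4 in the Col6a1+ libraries and 3, 1 and 0 in the Col6a1− libraries. No library exceeded 4, the groups overlapped, and a difference was not detectable at this depth (log2 fold change 0.30, 95% interval -1.62 to 2.22, limma adjusted p = 0.866). The annotated gene spans 4 genes of the opposite strand, whose reads cannot be told apart from its own if the counting ignored strand.

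Gjb1 (ENSMUSG00000047797, chromosome X from 101376378 to 101385629, plus strand) encodes Cx32, a connexin of secretory and absorptive epithelia and of myelinating Schwann cells. It had 0, 72 and 33 normalized counts in the Col6a1+ libraries and 219, 463 and 423 in the Col6a1− libraries. The Col6a1+ libraries differed widely among themselves, yet all lay below the Col6a1− libraries. Means were 35 ± 36 and 368 ± 131 (SD, n = 3 each), a ratio of 10.5 in favor of Col6a1− CAFs. Its difference of -4.70 on the log2 scale (standard error 1.26) did not pass (limma adjusted p = 0.0651). It passed when library totals replaced the size factors (adjusted p = 0.0364) and with limma-voom (adjusted p = 0.0173), within a range of 0.0130 to 0.532 over the alternatives. Its size rested on Col6a1+ replicate 1, the library at 0, and was -2.82 without it.

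Gjb2 (ENSMUSG00000046352, chromosome 14 from 57098600 to 57104702, minus strand) encodes Cx26, which is best known from epithelia and the cochlea. Its counts ran opposite to those of Gjb1, with 92, 55 and 44 normalized counts in the Col6a1+ libraries and 13, 17 and 16 in the Col6a1− libraries. The Col6a1− libraries were nearly equal and each of the Col6a1+ libraries exceeded them. Means were 63.7 ± 25.1 and 15.3 ± 2.08 (SD, n = 3 each). The log2 difference of 1.92 (standard error 0.56, 95% interval 0.69 to 3.16) did not pass (limma adjusted p = 0.0879, range 0.0150 to 0.186 over the alternatives), except where only genes reaching 10 in each of the 6 libraries were fitted (adjusted p = 0.0150).

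Gjb5 (ENSMUSG00000042357, chromosome 4 from 127354809 to 127358181, minus strand) encodes Cx31.1, a connexin of skin and other stratified epithelia. It had 0, 0 and 4 normalized counts in the Col6a1+ libraries and 6, 11 and 16 in the Col6a1− libraries. The groups did not overlap, although all counts were low. The log2 difference of -2.72 (standard error 1.03, 95% interval -5.01 to -0.43) did not pass (limma adjusted p = 0.203, range 0.0584 to 0.466 over the alternatives).

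**Figure D2:**
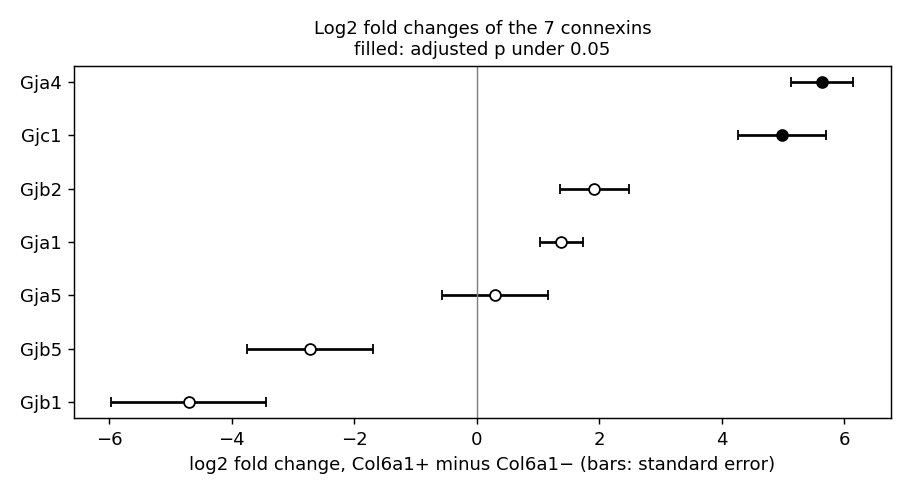
Log2 fold changes between Col6a1+ and Col6a1− CAFs are plotted for the 7 connexins, with bars of 1 standard error and filled circles for an adjusted p under 0.05. Gja4 (5.64) and Gjc1 (4.98) are the filled circles, and Gjb1 (-4.70) and Gjb5 (-2.72) lie at the negative end.

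Because the paper describes each sample as a pool of tumors, libraries of the same replicate number were taken as pairs, and the difference was also read within each number. Correlations of the deviations from the group means did not settle this pairing. For Gja4 the log2 differences were 5.36, 4.84 and 6.73 in replicates 1, 2 and 3, and for Gjc1 5.77, 5.13 and 4.04. Those of Gja1 were 0.85, 1.56 and 1.74, and those of Gjb2 were 2.73, 1.64 and 1.40. Each of these genes was thus higher in the Col6a1+ library of each of the 3 pairs. Gjb1 differed by -7.78, -2.67 and -3.64 and Gjb5 by -2.81, -3.58 and -1.77, lower in each pair. Gja5 differed by -2, 0.58 and 2.32, with no common direction.

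**Figure D3:**
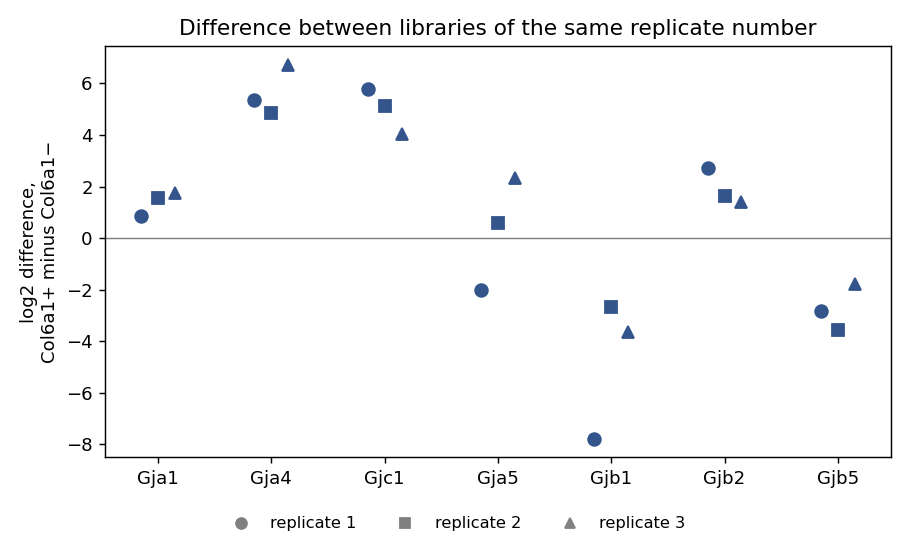
For each connexin gene, the log2(normalized count + 1) of the Col6a1+ library minus that of the Col6a1− library is plotted for replicates 1 (circle), 2 (square) and 3 (triangle), with a grey line at no difference. The points of Gja4, Gjc1, Gja1 and Gjb2 all lie above the line, those of Gjb1 and Gjb5 below it, and those of Gja5 on both sides.

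Of the other 13 connexin genes of the table, 7 had a count and 6 were at 0 in all 6 libraries. Together with the pannexins Panx1 and Panx3, which form channels of a separate family, 9 such genes were tested and 0 passed an adjusted p of 0.05 in either direction with limma. By the unadjusted criterion above, 2 were lower, and limma-voom called 1 lower. Panx1, the most widespread pannexin, had 23, 42 and 55 normalized counts in the Col6a1+ libraries and 62, 53 and 72 in the Col6a1− libraries, and the groups overlapped (log2 fold change -0.70, 95% interval -1.80 to 0.40, limma adjusted p = 0.557). Panx2 was at 0 in all 6 libraries.

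A list of 16 genes whose products bind, modify or traffic connexins was examined in the same fit. Of these, 3 were higher and 2 lower in Col6a1+ CAFs, against 2.66% and 1.96% of all genes tested, and 11 did not pass. The median log2 fold change was 0.32, against -0.27 over all genes tested, many of them lower in counts. All 16 averaged 10 or more normalized counts. With only such genes fitted, 3 were higher and 2 lower, against 815 and 608 of 13515 genes. Cav1, the scaffold of caveolae, had 1166, 576 and 1199 normalized counts in the Col6a1+ libraries and 93, 91 and 35 in the Col6a1− libraries (log2 fold change 3.78, standard error 0.45, limma adjusted p = 0.00185). Nedd4, a ubiquitin ligase that acts on Cx43, had 1190, 1078 and 1589 against 474, 389 and 483 (log2 fold change 1.5, standard error 0.28, limma adjusted p = 0.0129). Prkce, a protein kinase C that phosphorylates Cx43, had 134, 60 and 64 against 14, 16 and 21, with a limma adjusted p of 0.0480. These 3 genes had no overlap between the subsets. Of the lower genes, Ezr, the membrane-cytoskeleton linker ezrin, had 105, 263 and 337 against 870, 1142 and 1033 (log2 fold change -2.26, standard error 0.41, limma adjusted p = 0.0129). Tjp1, the scaffold ZO-1 that binds the tail of Cx43, had 97, 64 and 69 against 41, 65 and 97, with a limma adjusted p of 0.782. With the replicate block none of the 16 genes passed, nor did any pass when 1 library was left out, while the block among genes averaging 10 or more called 3 higher and 2 lower.

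Markers of cell types also differed between the subsets. All 8 mural markers were higher in Col6a1+ CAFs, with summed normalized counts of 41577 to 90981 against 1147 to 2141. The pericyte gene Rgs5 alone had 42173, 29648 and 31282 against 509, 700 and 297. In addition, 6 of 8 smooth muscle markers were higher, with sums of 12621 to 25196 against 504 to 2483, most of it from the actin gene Acta2 (13354, 9411 and 20435 against 1701, 1363 and 346). Gja4 and Gjc1 moved in the same direction. Of 12 endothelial markers, 3 were higher in Col6a1+ CAFs (Tie1, Esam and Eng) and 0 lower with limma, but the other 9 had negative log2 fold changes, with non-overlapping libraries for 2 of them, and the median over the list was -1.20. The summed counts of 1421 to 1693 against 405 to 744 came mostly from Esam, an adhesion molecule gene, with 943, 971 and 1125 normalized counts against 54, 93 and 38. Pecam1, which encodes the sorted-out CD31, had 0, 21 and 27 against 13, 64 and 44, and the subsets overlapped. The part of mural, smooth muscle or endothelial cells in the levels of Gja4 and Gjc1 was not tested.

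Epithelial markers ran the other way. Of 12, 9 were lower in Col6a1+ CAFs and 0 higher, and their summed normalized counts were 5836 to 6532 in the Col6a1+ libraries and 20818 to 35439 in the Col6a1− libraries, a ratio of means of 4.31. None of the 12 was at 0 in any library. Epcam, against which the cells had been sorted, had 1074, 884 and 615 normalized counts in Col6a1+ CAFs and 3107, 4129 and 3730 in Col6a1− CAFs. Gjb1 and Gjb5 had the direction of these markers and Gjb2 had the opposite one. Col6a1+ replicate 1, where Gjb1 was at 0, held 5836 epithelial marker counts, of which 2999 were from Cdh1. Single markers ran both ways over Col6a1+ replicates 1, 2 and 3, with 50, 160 and 286 for Vil1 and 354, 293 and 252 for Krt19. The part of epithelial RNA in the levels of the beta connexins was not tested, and fewer cells of a type cannot be told apart from less RNA per cell in such bulk libraries. Among fibroblast markers, 4 of 6 were higher in Col6a1+ CAFs and 0 lower, with sums of 37468 to 41177 against 6799 to 13785, and Pdgfra, a receptor gene of fibroblasts, had 1145, 1253 and 808 against 347, 233 and 203. Immune markers summed to 17 to 41 against 57 to 119, with 0 of 8 called in either direction, and Ptprc, which encodes the sorted-out CD45, did not exceed 8 in any library. Glial markers summed to 55 to 73 against 29 to 76, with 0 of 5 called, and S100b did not exceed 30. Of the interstitial cell of Cajal markers, Ano1 was higher in Col6a1+ CAFs, with 292, 476 and 564 against 73, 151 and 151, and Kit, which had 0, 0 and 5 against 15, 12 and 14, was not called.

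**Figure D4:**
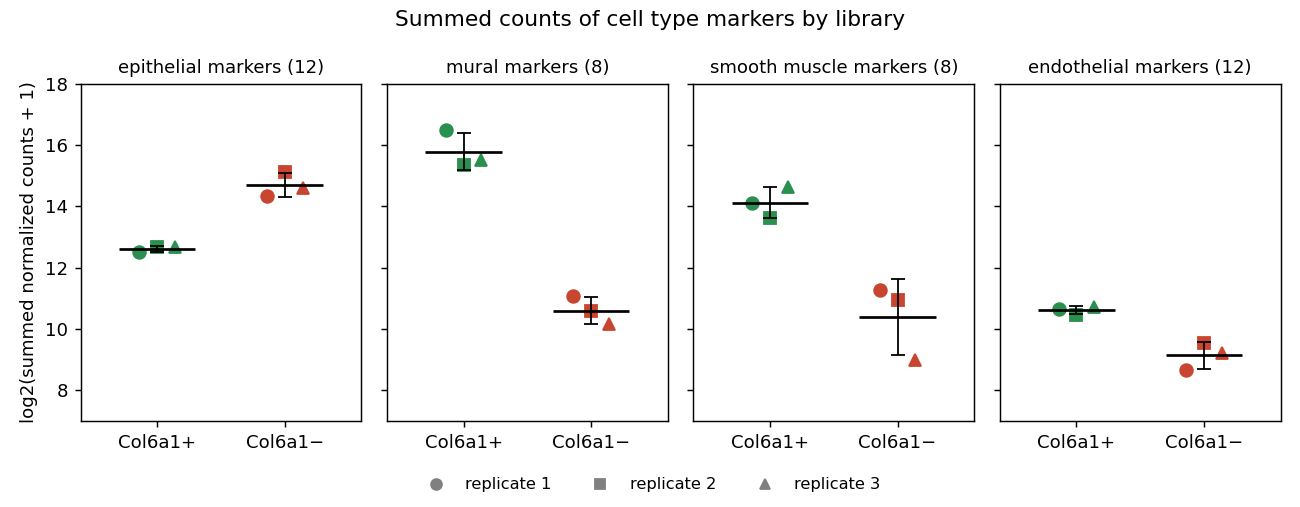
The panels plot the log2 of the summed normalized counts (plus 1) of 12 epithelial, 8 mural, 8 smooth muscle and 12 endothelial marker genes in each Col6a1+ (green) and Col6a1− (red) library, with the group mean and a bar of 1 SD. Epithelial sums are higher in the Col6a1− libraries and the other sums in the Col6a1+ libraries, the endothelial one mostly through Esam.

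For the 5 connexins averaging 10 or more normalized counts over the 6 libraries, the genes with the most similar pattern were ranked by Pearson's r of the log2 values over these libraries, among 13514 other genes. Because the libraries fall into the 2 subsets and many genes differ between them, high values of r are common, and they are given as a description. The genes most like Gja4 were Meg3 (r = 0.9991), a maternally expressed long noncoding RNA, Trim47 (0.9987) and the endothelin receptor gene Ednra (0.9981). Those most like Gjc1 were C2cd2 (0.9976), the TNF receptor family gene Cd40 (0.9952) and Pcp4l1 (0.9936). Gja1 was followed by Rgs2 (0.9956), a regulator of G-protein signaling, Myof (0.9913) and Nfkbiz (0.9895), an inducible NF-κB cofactor. Near Gjb2 were Irs1 (0.9973) and Lrrc23 (0.9956), and those to Gjb1 were Pgpep1 (0.9973), Capza2 (0.9973) and Glo1 (0.9967). No gene ranked among the first 3 for more than 1 of the connexins.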

How the data were processed

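RNA of sorted cells from AOM/DSS-induced colonic tumors was sequenced as 3′ mRNA (QuantSeq, Ion Proton) in 6 libraries, 3 of Col6a1+ and 3 of Col6a1− CAFs, grouped by their labels. The authors mapped the reads to mm10 with TopHat2 and the remaining reads with Bowtie2, counted them per gene with GenomicRanges and normalized them with DESeq through metaseqR, and deposited the log2 of each normalized count plus 1. These values were whole normalized counts in 100% of cases, within 1e-06. The paper does not state whether counting used the strand. Another 6 columns of per-sample values were not used, and the table's own fold changes, p-values and false discovery rates were neither used nor compared.

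The log2 values were fitted with limma 3.58.1 in R 4.3.3 (eBayes with a mean-variance trend, 6.48 prior and 4 residual degrees of freedom) over the 26402 genes with a sum of at least 1 normalized count, with a call at an adjusted p under 0.05. The study's DESeq test needs counts, which the table does not hold. Intervals are 95% intervals of the fitted difference. The main fit leaves out the replicate number, so its p-values measure the spread between libraries within a subset. Only the fits with a replicate block measure the spread of the difference between replicate numbers. The fit was also run on simulated data without pool effects and with changes only in well-counted genes. That run therefore does not bear on low genes or on the pairing. Plots were drawn with Matplotlib 3.10.9. Named are all 7 genes, other connexins and pannexins averaging 10 or more normalized counts in a group, called partner genes, the first gene of each marker list and the 3 genes most like each connexin. Tjp1, Ano1, Tie1, Esam and Eng were named after their values were seen. Some genes that meet these rules are not reported here. The members and lists were chosen with earlier results of these data known.

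Among the 13515 genes averaging 10 or more, deviations from the group means correlated with r = 0.245, 0.125 and 0.144 between libraries of the same replicate number and -0.245 to 0.150 between others. The ranges overlap, so the correlations do not settle the pairing. The paper describes 3 samples, each from a pool of tumors. Each pair was on that ground read as 1 pool sorted into both subsets, and fits with a replicate block are given where a call changed. Other alternatives were another scaling, filter, pseudocount, test or weighting, leaving out each library, and unadjusted p-values.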

Additional observations from a re-analysis of the deposited data

How the results depend on the processing

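The direction of Gja1, Gja4, Gjb1, Gjb2, Gjb5 and Gjc1 was the same under each alternative in which they were tested, and that of Gja5, at the detection limit, turned to -0.21 without Col6a1+ replicate 3 and -0.20 without Col6a1− replicate 3, never passing the test. With the replicate block, 0 genes of the table passed in either direction (smallest adjusted p 0.0612, with 1851 higher and 2567 lower at an unadjusted p under 0.05), so that Gja4 (5.64) and Gjc1 (4.98) were not called, nor any connexin (0) or partner (0), while the block over genes with a mean of at least 10 called Gja1 (1.38), Gja4, Gjc1 and, as the 1 lower connexin, Gjb1 (-4.70), with 3 partners higher and 2 lower and 981 genes higher and 871 lower. No other call of a connexin changed with the block. Gjb1 was also the 1 connexin called lower with library totals (-4.74), limma-voom (-5.11) and array quality weights (-3.47). Gja1 was called over genes with a mean of at least 10 (1.38), at least 10 in every library (1.38), limma-voom (1.33) and array weights (1.45), and Gjb2 over genes with at least 10 in every library (1.92). Genes called lower numbered 336 with a pseudocount of 0.1, 1006 with limma-voom and 969 with array weights, against 517, and limma-voom called 1 other connexin lower. At unadjusted p-values, 4 connexins were called higher, Gja1 (1.38) and Gjb2 (1.92) included, and 2 lower, Gjb1 (-4.70) and Gjb5 (-2.72), with 2 other connexins lower and 1607 and 2273 of all genes higher and lower. The cause of these shifts was not tested, other than that a filter leaves fewer genes to adjust over.

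When 1 library was left out, 0 to 98 genes were higher and 0 to 166 lower, and 0 to 1 of the 7 connexins and 0 of the partners were called higher, with 0 partners lower. Log2 fold changes then ranged from 5.11 to 5.91 for Gja4, 4.37 to 5.53 for Gjc1, and -0.21 to 0.95 for Gja5. Each fit without a library has fewer residual degrees of freedom. At this depth, a difference in Gja5 was not detectable.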
